A study of Mus musculus with 18 samples.

Results

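The genes described here are 10 that mark monocytes and macrophages in mouse bone marrow: Lyz1, Lyz2, Lgals3, Ms4a6c, Ly86, Cybb, Cd68, Mpeg1, Fn1 and Klf4. They were chosen by symbol, and each was found in all 3 expression tables of the series, as 10 of 19919 genes listed over the tables. Transcripts were measured by RNA-seq in 18 libraries from 3 progenitor populations sorted from C57BL/6 bone marrow, namely multipotent progenitors (MPPs), common DC progenitors without surface CD115 (CD115- CDPs) and common lymphoid progenitors (CLPs). All were lineage-negative and FLT3+, MPPs were also gated on Sca-1, CD117 and CD34, CD115- CDPs on intermediate CD117 without CD127, and CLPs on CD127 with Sca-1 and CD117. Each population had 3 libraries from Trim33 fl/fl mice, called WT, and 3 from Trim33 fl/fl Cre-ERT2 mice, called KO. Mice of both genotypes carried the floxed alleles and received tamoxifen, 2 mg a day on 5 days, and marrow was taken 7 days later from animals 6 to 8 weeks old. The Cre-ERT2 allele is expressed in all tissues, so excision of Trim33 exons 2 to 4 was not limited to the sorted cells, and the WT mice carried no Cre. The series gives 3 biological repeats per group without saying whether a library came from 1 animal or a pool, so the p-values below measure the spread between these libraries.

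Monocytes arise in the marrow from progenitors that also give rise to dendritic cells, and they mature into macrophages in tissues. As they mature they switch on enzymes that digest bacterial walls, an oxidase that makes superoxide in the phagosome, lysosomal membrane proteins and adhesion molecules. Several of them, such as the lysozymes, are shared with neutrophils, and others, such as Mpeg1, with dendritic cells. In bulk libraries such as these, fewer cells of a type and less RNA per cell cannot be told apart.

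The members have different roles. Lyz1 (chr10:117287795-117292868) and Lyz2 (chr10:117277541-117282272) encode secreted lysozymes that cut peptidoglycan. Cybb (chrX:9435252-9487766) encodes the membrane-bound catalytic chain of the phagocyte NADPH oxidase. Cd68 (chr11:69664213-69666170) encodes a heavily glycosylated lysosomal membrane protein, and Mpeg1 (chr19:12460770-12465285) a pore-forming protein of phagocytes. Ly86 (chr13:37345345-37419036) encodes MD-1, the soluble partner of the receptor CD180, and Ms4a6c (chr19:11469353-11487182) a protein that spans the membrane several times. Lgals3 (chr14:47373860-47386167) encodes galectin-3, a lectin that binds beta-galactosides, Fn1 (chr1:71585473-71653280) the matrix protein fibronectin, and Klf4 (chr4:55527137-55532475) a zinc finger transcription factor needed for monocytes. Coordinates are those of RefSeq on GRCm38.p6, the build that mm10 is taken from.

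Lyz1 and Lyz2 are neighbours 5.52 kb apart and close copies, so their sequences bear on how well short reads tell them apart. The opening 150 bases of each coding region, read from the reference transcripts, are shown with the bases that differ in capitals.
Lyz1: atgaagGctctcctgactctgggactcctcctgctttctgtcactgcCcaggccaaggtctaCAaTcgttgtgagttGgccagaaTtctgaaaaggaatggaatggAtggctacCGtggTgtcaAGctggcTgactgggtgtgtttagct
Lyz2: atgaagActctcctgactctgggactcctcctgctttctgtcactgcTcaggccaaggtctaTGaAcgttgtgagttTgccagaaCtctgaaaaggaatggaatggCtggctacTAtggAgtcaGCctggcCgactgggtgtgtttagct
Of these 150 bases 14 differed, and over the whole coding region 22 of 447 differed, an identity of 95.1%. Of the 50-base windows of the transcripts, the length of the reads, 195 were the same in both genes, or 16.1% of those of Lyz1 and 15.4% of those of Lyz2. Most reads could thus be assigned to 1 gene of the pair, and those that could not were shared out by the estimation program.

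The pair was close in the part of the promoter next to the start, while over 250 bases 98 differed position by position, an identity of 60.8%. The 120 bases before the start of each gene (RefSeq, GRCm38.p6, minus strand for both) are shown because the levels of the pair moved together, again with the differing bases in capitals.
Lyz1: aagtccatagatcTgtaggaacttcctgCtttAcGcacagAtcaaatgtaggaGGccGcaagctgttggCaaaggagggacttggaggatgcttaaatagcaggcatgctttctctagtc
Lyz2: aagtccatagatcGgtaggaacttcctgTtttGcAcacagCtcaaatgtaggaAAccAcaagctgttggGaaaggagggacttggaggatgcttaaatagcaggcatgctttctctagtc
Here 9 of 120 bases differed, and the 50 bases next to the start were identical.

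Promoters were present in the reference table for 9 members, all but Fn1. They were searched over 250 bases before the start, on both strands, for GAGGAAG, a core of PU.1 sites, for the composite element of ETS and IRF factors, GGAA then any 2 bases then GAAA, and for the core of the interferon response element, GAAA then any 2 bases then GAAA. None of the 9 held either of the motifs with an ETS core, which were found in 10.7% and 2.31% of 32536 promoters. Only Cybb held the interferon response element core, which 2.98% of promoters held. Its window (chrX:9469325-9469574, GRCm38.p6, minus strand, inside the annotated span of the gene) is shown with the matches in capitals, because Cybb had the largest difference of the 10 genes on the log2(FPKM + 1) scale.
Cybb: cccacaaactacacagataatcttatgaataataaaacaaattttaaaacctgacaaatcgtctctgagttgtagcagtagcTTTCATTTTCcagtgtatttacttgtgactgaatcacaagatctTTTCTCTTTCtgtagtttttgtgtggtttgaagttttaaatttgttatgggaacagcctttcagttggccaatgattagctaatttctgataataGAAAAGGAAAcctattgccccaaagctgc
The matches began 168, 124 and 29 bases before the start, and 2 of the 3 were on the strand opposite to the one shown. A match says only that these letters are present.

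The libraries were of like depth, with 19200000 to 21200000 mapped reads each, estimated from the size of the steps between low FPKM values. FPKM, the deposited unit, is a count of fragments scaled to transcript length and to the mapped reads of the library. At these depths 1 read on a transcript of 2000 bases came to 0.0252 FPKM. The lowest estimate for a member with a single transcript was 62 reads, for Ly86 in a KO MPP library. Reads were not estimated for Lgals3, Ms4a6c, Cd68 and Fn1, which have more than 1 transcript. Counting error was thus not sized for them. The KO values of Fn1, and those of Lgals3 in CLPs, were at or under 1 FPKM and may rest on few reads. Gene-level Trim33 was 10.4, 10.1 and 8.78 FPKM in the WT and 9.71, 11.7 and 4.8 FPKM in the KO MPP libraries, and the ranges of the genotypes overlapped in all 3 populations. This value also counts exons outside the deleted ones, so it does not check the genotype labels, and KO stands throughout for libraries labelled so. Of the sort markers, Flt3 was at 146.8 FPKM or more in every library and Il7r, which encodes CD127, was 32.6 to 63.0 FPKM in CLPs against 3.17 to 20.6 FPKM in CD115- CDPs. Csf1r, which encodes CD115, was nonetheless present as RNA in the CD115- CDPs, at 39.1 to 137 FPKM in WT and 9.24 to 37.2 FPKM in KO libraries. Xist and the Y-linked Ddx3y were both at 1 FPKM or more in 10 of the 18 libraries, and Ddx3y ranged from 0 to 16.8 FPKM, so libraries differed in their content of male and female RNA, and the part of sex in the results was not tested. In MPPs this moved with the genotype, where the Y-linked Kdm5d was at 3.18, 2.98 and 2.14 FPKM in WT and 1, 0.04 and 0 FPKM in KO libraries. Kdm5d and Uty were called lower there. Kdm5d passed the expression filter given below through its WT libraries alone, so its call is no separate support.

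Replicate 3 stood apart in CD115- CDPs. The WT library of that number had 51.8 times the Fn1, 17.7 times the Lyz2, 16.3 times the Lyz1 and 7.02 times the Lgals3 of the mean of the other WT libraries, in FPKM. The sum over 16 neutrophil granule genes was 709, 788 and 4837 FPKM in WT and 1140.4, 851 and 4569 FPKM in KO libraries, high in replicate 3 of both genotypes. The KO library of that number had 1.76 times the Lyz2 and 1.26 times the Fn1 of the other KO libraries, so it was high in granule genes without being as high in these members. Results of the members in CD115- CDPs are therefore given with and without replicate 3 of both genotypes, an alternative chosen after the data were seen. Most results of other genes there are given only with replicate 3.

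**Figure D1:**
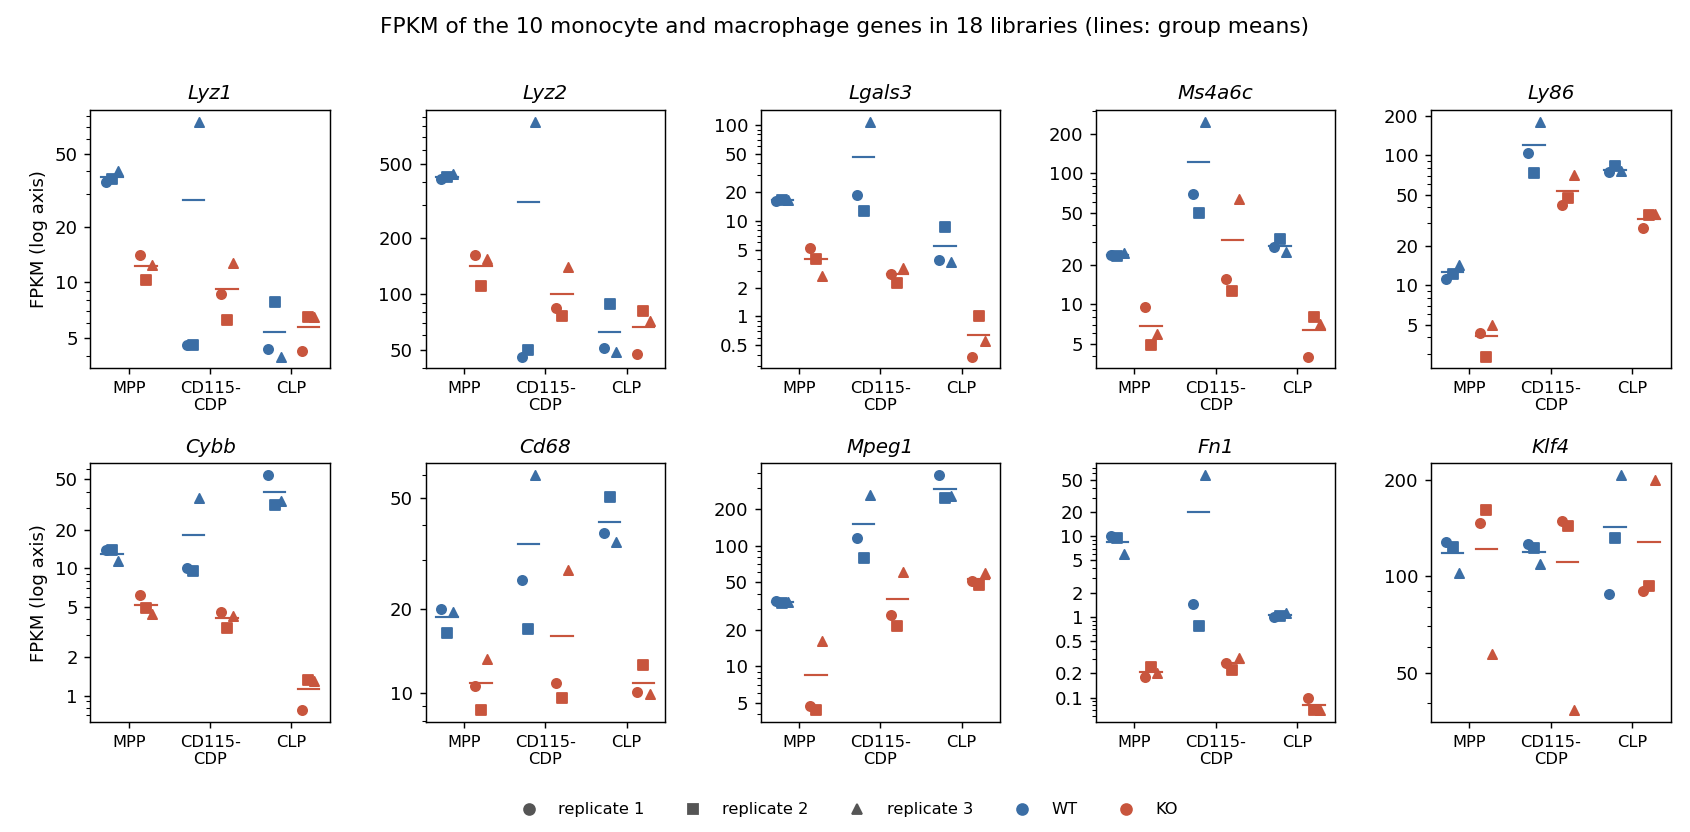
FPKM on a log axis of each of the 10 genes in MPPs, CD115- CDPs and CLPs, with WT in blue and KO in red, a marker shape for each replicate number and a line at the group mean. The WT CD115- CDP library of replicate 3 is the highest of its group for every gene but Klf4, and KO and WT do not overlap for 9 genes (MPPs), 5 (CD115- CDPs) and 7 (CLPs).

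A gene was called lower or higher when limma's moderated test on log2(FPKM + 1) reached 0.05 after Benjamini-Hochberg adjustment over all tested genes and the log2 difference was at least 1 in size. Differences on this scale, given as KO minus WT with the standard error, understate the change of genes near or below 1 FPKM. All 10 genes passed the filter of a mean of at least 0.5 FPKM in each population, but Fn1 passed it in all 3 through its WT libraries alone.

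Of the 10 members, 7 had a call of lower and none of higher in KO MPPs, where 1.32% of 12372 tested genes were called lower and 0.162% higher. The 7 include Fn1, which passed the filter through its WT libraries alone. In CLPs 6 of the 10 were called lower and none higher, against 2.84% of 12339 genes lower and 0.673% higher. In CD115- CDPs none was called in either direction by limma, against 0.0654% of 12229 genes lower and 0.0409% higher, while 5 were lower at an unadjusted p under 0.05. The share of all tested genes at such an unadjusted p was not counted. That count and the later ones of its kind thus have no background to be read against. The same replicate numbers marked libraries that deviated together in CD115- CDPs, though mainly replicate 3 stood apart and replicates 1 and 2 were hardly told apart. With the number as a block 6 of the 10 genes were called lower there, against 1.46% of all genes. In CLPs the block left the count at 6, against 3.11% of all genes. These shares of called genes are also the background for the calls counted in other gene lists below. The median difference of the members was -1.56 (MPPs), -1.39 (CD115- CDPs) and -1.52 (CLPs), beside -0.11, -0.075 and 0.0076 for all tested genes. All KO libraries lay below all WT libraries for 9 members in MPPs, where 23.3% of tested genes did so, for 5 in CD115- CDPs, where 10.6% did, and for 7 in CLPs, where 18.6% did. No member lay the other way round, against 6.98%, 7.68% and 15.3% of genes. All but Klf4 are on the list of genes lower in more than 1 population that the study drew up from these same libraries, so the direction of the counts is not independent evidence. Cybb, Lgals3, Ly86 and Ms4a6c were the 4 genes called lower in both MPPs and CLPs, and all 4 were called in CD115- CDPs with the block.

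**Figure D2:**
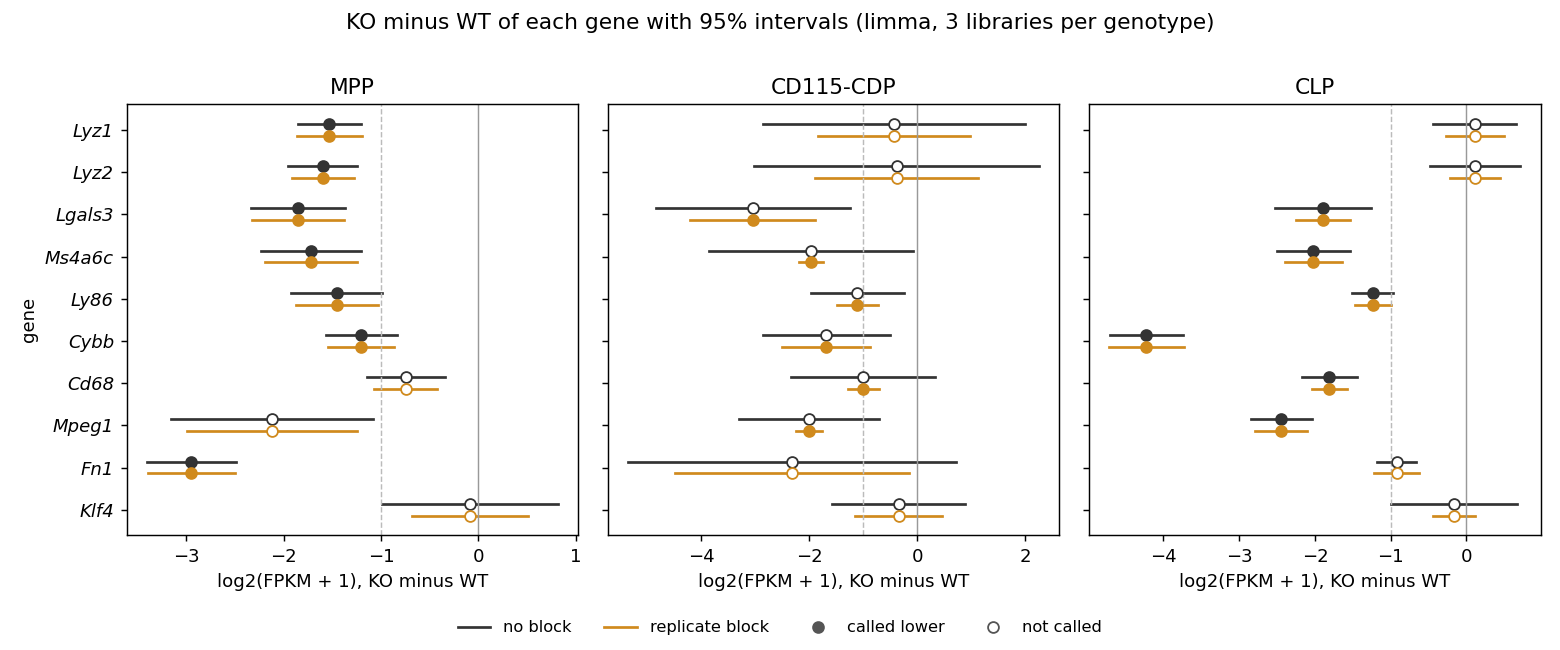
Difference of each gene, KO minus WT, in log2(FPKM + 1) with its 95% interval from limma, without the replicate block in black and with it in orange, where filled points were called lower. Intervals in CD115- CDPs narrow with the block for all 10 genes, and Cybb in CLPs lies furthest from 0 of all points.

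Lysozyme transcripts were lower in KO MPPs and did not separate the genotypes in the other populations. Lyz2 was at 415, 425 and 441 FPKM in the 3 WT MPP libraries and at 162, 111 and 154 FPKM in the 3 KO libraries. Every KO library was under every WT library, and the difference was -1.60 ± 0.15 (adjusted p = 0.00449), a ratio of means of 3.003. Lyz1 was at 34.9, 36.4 and 40.3 FPKM in WT and 14.1, 10.3 and 12.5 FPKM in KO MPPs, with a difference of -1.53 ± 0.14 (adjusted p = 0.00421). The ratio of means, 3.02, was nearly that of Lyz2.

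In CD115- CDPs Lyz2 was at 45.98, 50.1 and 849 FPKM in WT and 84.3, 75.8 and 141 FPKM in KO libraries, so the WT values lay on both sides of the KO values. The difference was -0.38 ± 1.10 (adjusted p = 0.946). Without replicate 3 of both genotypes it was 0.72 (adjusted p = 0.0305), and without that WT library alone 0.99 (adjusted p = 0.38). Lyz1 was at 4.59, 4.56 and 74.5 FPKM in WT and 8.62, 6.23 and 12.8 FPKM in KO CD115- CDPs, again with WT values on both sides of the KO values. Its difference was -0.43 ± 1.01, and 0.58 (adjusted p = 0.156) without replicate 3.

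In CLPs Lyz2 was at 51.1, 88.2 and 48.5 FPKM in WT and 47.3, 81.2 and 71.8 FPKM in KO libraries, and the ranges overlapped. The difference of 0.11 ± 0.26 had a 95% interval of -0.48 to 0.71, which spans 0. Lyz1 was at 4.35, 7.81 and 3.95 FPKM in WT and 4.22, 6.51 and 6.48 FPKM in KO CLPs, with a difference of 0.11 ± 0.24. Across all 18 libraries, with a range of Lyz2 from 46.0 to 849 FPKM, Lyz1 was between 8.02% and 10.2% of Lyz2, with a median of 8.82%. The pair thus kept close to a fixed ratio in every population and genotype, as the plot of FPKM by library shows, though part of their reads cannot be told apart, as their sequences show.

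Lgals3 was called lower in KO MPPs and CLPs, and in CD115- CDPs with the replicate block. It was at 16.3, 16.6 and 16.6 FPKM in WT and 5.21, 4.02 and 2.65 FPKM in KO MPPs. The WT libraries were within 0.5 FPKM of each other, well above the KO libraries, and the difference was -1.85 ± 0.20 (adjusted p = 0.00802). In CLPs it was at 3.86, 8.61 and 3.71 FPKM in WT and 0.38, 1 and 0.55 FPKM in KO libraries. The groups did not overlap although the WT library of replicate 2 was over 2 times the others. The difference was -1.89 ± 0.28 (adjusted p = 0.00287), a ratio of means of 8.38. The reads behind these low KO values were not estimated.

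In CD115- CDPs Lgals3 was at 18.5, 12.5 and 109 FPKM in WT and 2.81, 2.23 and 3.22 FPKM in KO libraries. Even the lowest WT library was well above the highest KO library, while the WT libraries spread widely. The difference of -3.04 ± 0.75 had an adjusted p of 0.311, and 0.0237 with the replicate block. Without replicate 3 of both genotypes it was -2.21 (adjusted p = 0.00195).

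Lgals1, which encodes galectin-1, was the other galectin with a call. It was at 486, 663 and 589 FPKM in WT and 81.8, 118 and 101 FPKM in KO CLPs, a difference of -2.52 ± 0.16 (adjusted p = 3.04e-05). In MPPs its difference was -0.38 (adjusted p = 0.125). Of the 8 other galectins listed, 5 were tested in each population, and this was the only call without the block.

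Ms4a6c, of a family of membrane proteins that lie together on chromosome 19, was lower in KO MPPs and CLPs. It was at 23.8, 23.5 and 24.5 FPKM in WT and 9.52, 4.93 and 5.96 FPKM in KO MPPs, with no overlap and a difference of -1.72 ± 0.21 (adjusted p = 0.0133). CLPs had it at 27.5, 31.5 and 25 FPKM in WT and 3.99, 8.02 and 7.06 FPKM in KO libraries. The groups were again apart, with a difference of -2.02 ± 0.21 (adjusted p = 0.000517).

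In CD115- CDPs Ms4a6c was at 68.8, 49.3 and 247 FPKM in WT and 15.5, 12.7 and 63.99 FPKM in KO libraries. The KO library of replicate 3 was above the WT library of replicate 2, but within each replicate number the KO library was the lower. The difference of -1.96 had a standard error of 0.79 without and 0.094 with the block, and the adjusted p was 0.465 without and 0.000816 with it. With replicate 3 left out of both genotypes the difference was -1.98 (adjusted p = 0.00156). Among 12 other measured genes of the family, Ms4a4c, Ms4a6b and Ms4a2 were called lower in MPPs, at -1.65, -1.34 and -1.05, of 5 tested. None of 4 tested was called in CLPs, where 2 were lower at an unadjusted p under 0.05. None of 6 was called in CD115- CDPs, where none of these 6 reached that by limma. With the block Ms4a4c and Ms4a6b were called lower in CD115- CDPs.

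Ly86 was lower in KO MPPs and CLPs while its receptor was not called. It was at 11.3, 12.4 and 14.4 FPKM in WT and 4.34, 2.84 and 4.99 FPKM in KO MPPs, with a difference of -1.45 ± 0.20 (adjusted p = 0.0173). In CLPs it was at 75.1, 82.4 and 75.5 FPKM in WT and 27.5, 34.8 and 35.1 FPKM in KO libraries, with a difference of -1.24 ± 0.12 (adjusted p = 0.000258). No KO library reached a WT library in either population.

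In CD115- CDPs Ly86 was at 105, 73.8 and 182 FPKM in WT and 41.3, 46.95 and 70.3 FPKM in KO libraries, which did not overlap. The difference of -1.11 ± 0.36 had an adjusted p of 0.405, and 0.0189 with the block. Without replicate 3 of both genotypes the difference was -0.98 (adjusted p = 0.0295), just short of the fold limit.

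Cd180, the receptor that MD-1 binds, was at 25.9, 19.2 and 19.2 FPKM in WT and 14.6, 15.5 and 14.5 FPKM in KO CLPs. All KO libraries were lower, with a difference of -0.49 ± 0.13 (adjusted p = 0.0434), which is short of the fold limit. In MPPs it was at 14.3, 15.1 and 14.5 FPKM in WT and 5.5, 4.91 and 18.2 FPKM in KO libraries, with the KO library of replicate 3 the highest of the 6 (adjusted p = 0.291). Tlr4, the related receptor for endotoxin, was between 0.16 and 1.04 FPKM in all 18 libraries. None of the 8 other listed genes of these receptor complexes was called by limma in any population, and 2, 1 and 2 were lower and none, none and 1 higher at an unadjusted p under 0.05 in MPPs, CD115- CDPs and CLPs.

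Cybb had the largest difference of the 10 genes on the log2(FPKM + 1) scale, in CLPs. There it was at 53.99, 31.4 and 33.8 FPKM in WT and 0.77, 1.33 and 1.31 FPKM in KO libraries, the latter resting on about 71, 124 and 118 reads. All WT libraries lay far above all KO libraries, and the difference was -4.22 ± 0.21 (adjusted p = 7.66e-06), a ratio of means of 34.9. In MPPs it was at 13.8, 13.9 and 11.4 FPKM in WT and 6.13, 4.89 and 4.37 FPKM in KO libraries. The groups did not overlap there either, but the difference was -1.20 ± 0.15 (adjusted p = 0.0146) and the ratio of means 2.54.

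In CD115- CDPs Cybb was at 10.02, 9.47 and 35.8 FPKM in WT and 4.57, 3.4 and 4.25 FPKM in KO libraries. The KO libraries were close together and under all WT libraries. The difference was -1.68 ± 0.49, with an adjusted p of 0.367 without and 0.0365 with the block, and without replicate 3 it was -1.12 (adjusted p = 0.0238).

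Whether the KO effect differed between populations was tested for each gene by limma's F test of the interaction over all 18 libraries, in which 2.45% of 12421 genes differed. Of the 10 genes only Cybb did (adjusted p = 0.00631). Its difference in CLPs was lower than that in MPPs by 3.02 ± 0.51 and lower than that in CD115- CDPs by 2.54 ± 0.51. MPPs and CD115- CDPs differed by 0.48 ± 0.51. With the block, under which 8.67% of genes differed, Cd68 joined it (adjusted p = 0.00645). Without the WT CD115- CDP library of replicate 3, under which 4.24% of 12406 genes differed, Lyz1, Lyz2 and Fn1 also passed, with adjusted p of 0.0035, 0.00312 and 3.05e-05, against 0.577, 0.595 and 0.568 with it. For Fn1 this is no separate support, since it passed the filter through its WT libraries alone. Its WT means were then 1.1 FPKM in CD115- CDPs and 1.05 FPKM in CLPs, which limits how far it could fall there on this scale.

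No other subunit of the oxidase was called in CLPs at the fold limit of 1. Without that limit 3 were lower, and 1 was called with TPM, without the WT or the KO library of replicate 3, and without both. Cyba, the other membrane chain, was at 123, 134 and 128 FPKM in WT and 69.6, 78.2 and 62.8 FPKM in KO CLPs, a difference of -0.87 ± 0.11 (adjusted p = 0.00114). Ncf1, a cytosolic organizer subunit, was at 112, 124 and 107 FPKM in WT and 53.1, 57.8 and 61.3 FPKM in KO CLPs, a difference of -0.98 ± 0.10 (adjusted p = 0.000447). Both passed on the adjusted p with all KO libraries below all WT libraries, and fell short of the fold limit.

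Ncf4, another cytosolic subunit, was at 34.5, 38.98 and 30.1 FPKM in WT and 38.7, 36.8 and 32.6 FPKM in KO CLPs. The groups overlapped, with a difference of 0.063 ± 0.12. Of the 6 measured oxidase genes other than Cybb none was called in any population by limma without the block, and 3 in CLPs, 2 in MPPs and 1 in CD115- CDPs were lower at an unadjusted p under 0.05. In MPPs the differences of Cyba, Ncf1 and Ncf4 were -0.16, -0.51 and -0.22, and in CD115- CDPs -0.37, -0.56 and -0.083, with a lowest adjusted p of 0.121. Hvcn1, a voltage-gated proton channel, was called higher in CD115- CDPs with the block, at 1.11, from 19.8, 17.4 and 24.6 FPKM in WT to 46.6, 35.3 and 56.5 FPKM in KO libraries.

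**Figure D3:**
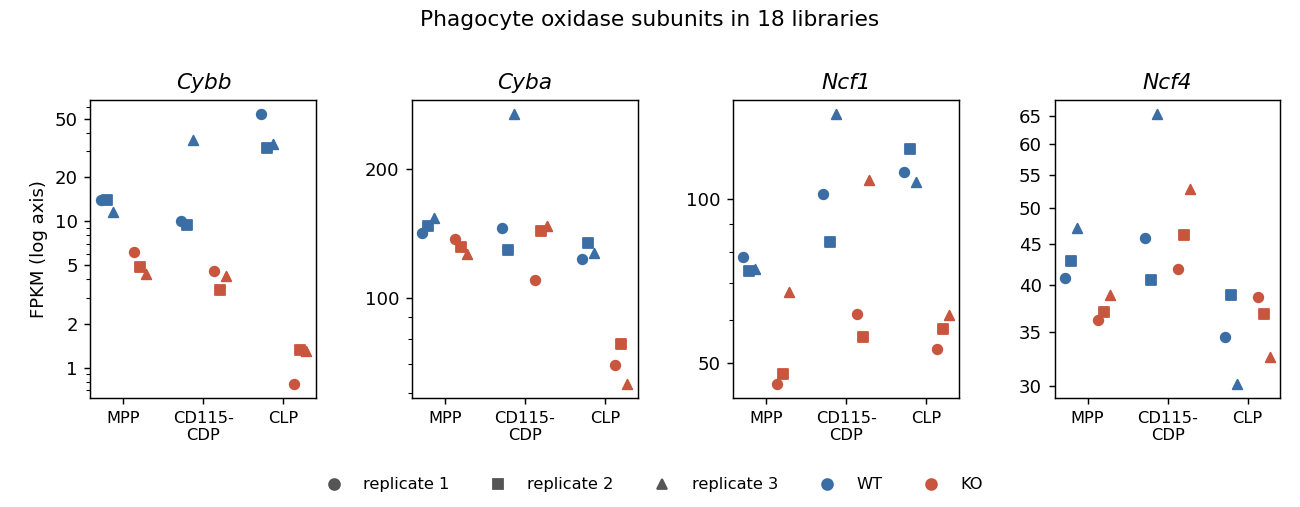
FPKM on a log axis of Cybb, Cyba, Ncf1 and Ncf4 in the 18 libraries, with WT in blue, KO in red and a marker shape for each replicate number. In CLPs the KO libraries lie below the WT libraries for Cybb, Cyba and Ncf1 and among them for Ncf4.

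Cd68 was lower in KO CLPs and short of a call in MPPs. It was at 37.5, 50.2 and 34.8 FPKM in WT and 10.1, 12.6 and 9.92 FPKM in KO CLPs, with a difference of -1.81 ± 0.16 (adjusted p = 0.000157). In MPPs it was at 20.1, 16.4 and 19.6 FPKM in WT and 10.6, 8.72 and 13.2 FPKM in KO libraries. The groups were apart in both, but in MPPs the difference was -0.74 ± 0.17 (adjusted p = 0.0655). CD115- CDPs had Cd68 at 25.4, 16.9 and 60.1 FPKM in WT and 10.9, 9.65 and 27.5 FPKM in KO libraries. Replicate 3 was the highest of each genotype there, and the difference of -1.0 had an adjusted p of 0.579, and 0.0123 with the block, at the very edge of the fold limit. With replicate 3 left out of both genotypes it was -0.95 (adjusted p = 0.0525). Of the related lysosomal LAMP genes 2 were tested, and neither was called by limma in any population, with 1 lower in CLPs at an unadjusted p under 0.05.

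Mpeg1 had the highest mean FPKM of the 10 genes in WT CLPs and fell in KO. It was at 384, 248 and 256 FPKM in WT and 51.3, 47.03 and 59.6 FPKM in KO CLPs, which lay well apart, with a difference of -2.45 ± 0.18 (adjusted p = 5.53e-05). In MPPs it was at 34.5, 33.5 and 34.1 FPKM in WT and 4.67, 4.34 and 16.3 FPKM in KO libraries. The KO library of replicate 3 was 3.62 times the mean of the other KO libraries yet under all WT libraries. The difference of -2.12 ± 0.44 had an adjusted p of 0.0526, and without that KO library it was -2.67 (adjusted p = 4.82e-05).

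In CD115- CDPs Mpeg1 was at 115, 78.3 and 263 FPKM in WT and 26.4, 21.6 and 60.7 FPKM in KO libraries. The groups did not overlap, and replicate 3 was the highest of each. The difference of -2.0 ± 0.54 had an adjusted p of 0.348 without and 0.000816 with the block, and of 0.00196 without replicate 3 of both genotypes. Perforin-like genes related to Mpeg1 were nearly silent, with a summed level of 0.36 to 0.93 FPKM over the libraries.

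Fn1 had the largest fall of the 10 genes in MPPs. In each population it passed the filter through its WT libraries alone, so its p-values and calls are no separate support. It was at 9.96, 9.47 and 6 FPKM in WT and 0.18, 0.24 and 0.2 FPKM in KO MPPs, far apart, with a difference of -2.95 ± 0.19 (adjusted p = 0.00182) and a ratio of means of 41.02. CLPs had Fn1 at 1.01, 1.02 and 1.11 FPKM in WT and 0.1, 0.07 and 0.07 FPKM in KO libraries. The levels were low and the groups did not overlap. The difference of -0.92 ± 0.11 passed on the adjusted p (0.00112) but not on the fold, while with a pseudocount of 0.1 it was -2.67 (adjusted p = 0.00136) and was called.

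In CD115- CDPs Fn1 was at 1.43, 0.77 and 56.99 FPKM in WT and 0.27, 0.22 and 0.31 FPKM in KO libraries. The KO libraries were under all WT libraries, but the mean of the WT group was set by replicate 3. The difference of -2.31 ± 1.26 had an adjusted p of 0.574, and 0.143 with the block. Leaving out replicate 3 of both genotypes gave -0.74 (adjusted p = 0.0934).

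Integrin chains that bind fibronectin were not called in MPPs. Itga5 was at 8.4, 9.71 and 8.3 FPKM in WT and 9.47, 11.2 and 7.71 FPKM in KO MPPs, and its partner chain Itgb1 at 43.7, 43.7 and 41.7 and 39.4, 33.99 and 41.1 FPKM. The groups overlapped for Itga5, and the differences of 0.083 ± 0.16 and -0.17 ± 0.10 were not called, nor were those of 0.40 and -0.069 in CLPs. Of 8 fibronectin receptors listed and tested, Itgb7, Sdc4 and Itgb3 were called lower in CLPs, at -2.69, -1.70 and -1.58, and none in MPPs, where 1 was lower at an unadjusted p under 0.05. In CD115- CDPs only Itgb7 was called lower, and only with the block.

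Klf4 was the member without a call in any population. It was at 128, 124 and 103 FPKM in WT and 147, 161 and 57.3 FPKM in KO MPPs, with a difference of -0.085 ± 0.38 and a 95% interval of -0.99 to 0.82. In CD115- CDPs it was at 126, 122 and 109 FPKM in WT and 149, 144 and 38.1 FPKM in KO libraries, a difference of -0.34 ± 0.51 with an interval of -1.57 to 0.89. In both populations the KO libraries of replicates 1 and 2 were above all WT libraries and that of replicate 3 was below them. Without replicate 3 of both genotypes the differences were 0.29 (adjusted p = 0.0255) and 0.24 (adjusted p = 0.297), under the fold limit. Immediate early genes, which respond within minutes to handling of cells, were lower in KO MPPs beside it, with a sum over 19 genes of 13342 to 14842 FPKM in WT and 5768 to 6957 FPKM in KO libraries and 7 called lower.

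In CLPs Klf4 was at 87.9, 131 and 207 FPKM in WT and 90.1, 93.5 and 200.3 FPKM in KO libraries. Its level went with the replicate number, with replicate 3 the highest of both genotypes, and the difference of -0.17 ± 0.36 had an interval of -1.0 to 0.67, or -0.45 to 0.11 with the block. The sum of these immediate early genes was 5566, 10068 and 11710 FPKM in WT and 5362, 7528 and 10691 FPKM in KO CLPs, so it went with the same numbers, and its part in the Klf4 levels was not tested.

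Klf2, a close relative of Klf4, was at 190.5, 628 and 1035 FPKM in WT and 263, 396 and 756 FPKM in KO CLPs, in the same order by replicate number as Klf4 in WT and in KO. Of the 12 relatives tested in MPPs, Klf1 and Klf6 were called lower, at -1.91 and -1.08, and none of 11 was called by limma in the other populations, where at an unadjusted p under 0.05 CD115- CDPs had 2 higher relatives and CLPs had 2 higher and 2 lower ones. Irf8, the factor that directs monocyte and dendritic cell fate, was at 1097, 1132 and 992 FPKM in WT and 189.5, 151 and 147 FPKM in KO CLPs, a difference of -2.72 ± 0.13 (adjusted p = 6.26e-06). In MPPs its difference of -1.55 ± 0.38 was not called (adjusted p = 0.0774). In CD115- CDPs Irf8 was called lower with the block and not without it. Spi1, which encodes PU.1, differed by -0.11 ± 0.14, -0.29 ± 0.22 and -0.11 ± 0.11 in MPPs, CD115- CDPs and CLPs and was not called.

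The lower members in CD115- CDPs rested on how the replicates were treated, so the libraries are plotted by number. Within each number the KO library was below the WT library for Lgals3, Ms4a6c, Ly86, Cybb, Cd68, Mpeg1 and Fn1. Of these only Fn1 was not called with the block. The share of all tested genes with KO below WT within each number was not counted. Without replicate 3 of both genotypes, Lgals3, Ms4a6c, Mpeg1 and Cybb were called lower, 4 of the 10, against 1.29% of 12087 tested genes.

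**Figure D4:**
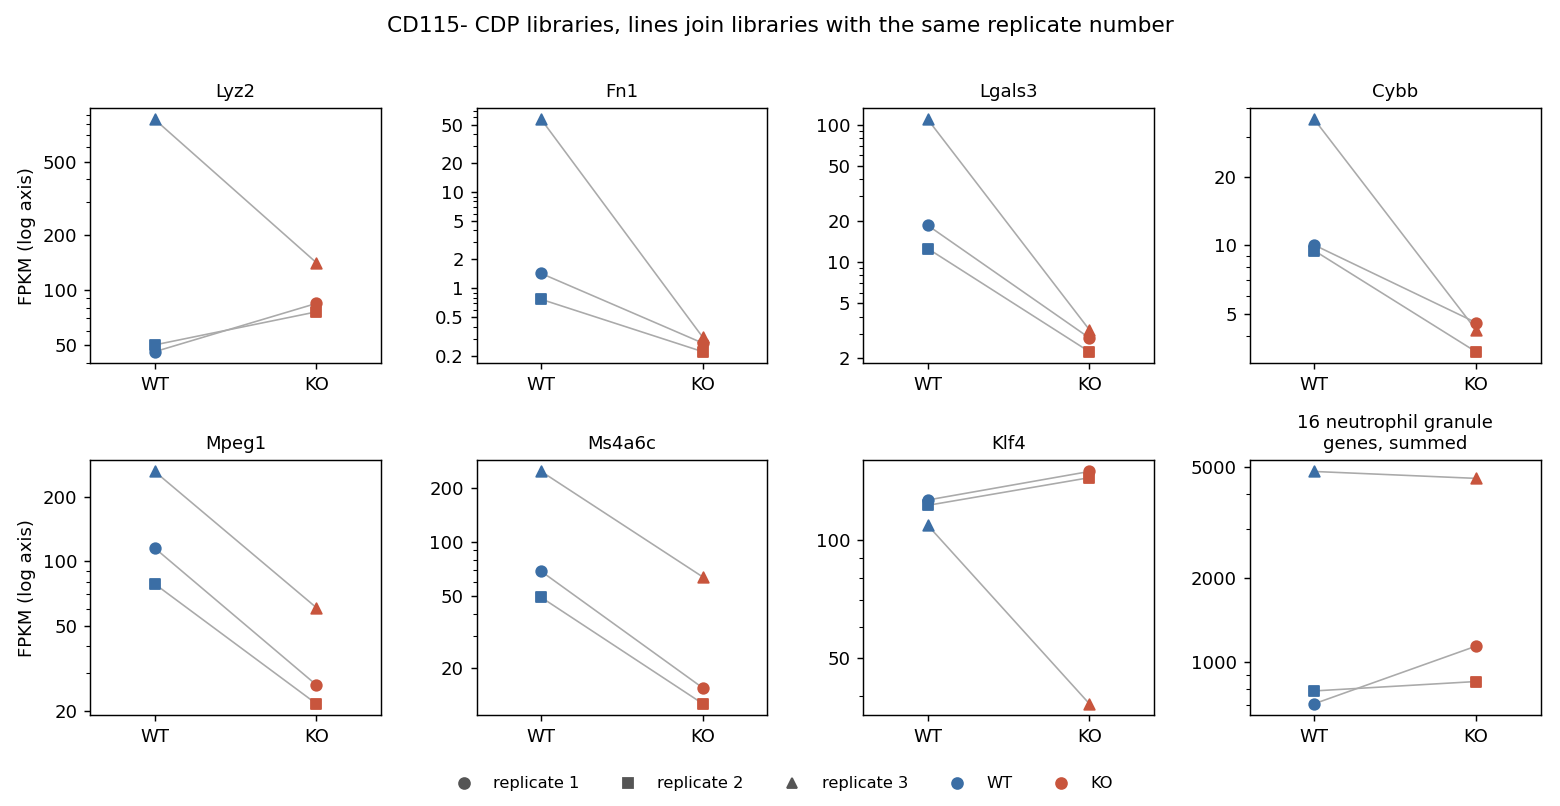
FPKM on a log axis of 7 of the genes and of 16 neutrophil granule genes summed in the CD115- CDP libraries, where lines join WT (blue) and KO (red) libraries of the same replicate number. Lgals3, Cybb, Mpeg1, Ms4a6c and Fn1 go down along all 3 lines, Lyz2 and Klf4 do not, and the granule sum is high in replicate 3 of both genotypes.

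Calls in MPPs rested on few libraries per group. Leaving out any WT library left 3 genes called lower (Fn1, Lyz1 and Lyz2) where limma then called 43 to 47 genes lower in all instead of 163. The differences of Lgals3, Ms4a6c, Ly86 and Cybb stayed at or under -1.16 in these fits, with adjusted p of up to 0.124. Without the KO library of replicate 1 Ly86 lost its call (adjusted p = 0.0582), without that of replicate 2 Cybb did (adjusted p = 0.0553), and the count was 6 in each. Without that of replicate 3 it was 8, with Mpeg1 added, where limma called 548 genes lower and 368 higher in all. In CLPs all 6 calls held without any 1 library.

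The level of a member across populations is given as a description, since the tables were made separately. Over all WT libraries the lysozymes were highest on average in MPPs, Lgals3, Ms4a6c, Ly86 and Fn1 in CD115- CDPs, and Cybb, Cd68, Mpeg1 and Klf4 in CLPs. Without the WT CD115- CDP library of replicate 3, Fn1 averaged 1.1 FPKM in CD115- CDPs against 8.48 FPKM in MPPs and Lgals3 15.5 against 16.5 FPKM, so both were then highest in MPPs. The lysozymes were then lowest in CD115- CDPs, as was Cybb. Only Ms4a6c was, over all libraries, in its highest population without overlap with the next. Ly86 was 9.47 times as high in CD115- CDPs as in MPPs, Mpeg1 8.7 times as high in CLPs as in MPPs, and in both cases the MPP libraries were below all others. Klf4 was within a factor of 1.2 across populations, with overlapping ranges.

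In KO libraries the order changed for some genes. Cybb went from highest in CLPs to lowest, with all KO CLP libraries under all KO libraries of the other populations. Mpeg1 kept the order of CLPs above CD115- CDPs above MPPs, and the lysozymes kept MPPs first with ranges that overlapped those of CD115- CDPs. Lgals3 was highest in MPPs and CD115- CDPs, whose ranges overlapped, and lowest in CLPs.

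Over the 18 libraries the 10 genes did not form a single block. Of 45 pairs, 21 had a Pearson correlation of log2(FPKM + 1) above 0.5 and 10 were below 0, with a median of 0.357, as a description over libraries that share populations, genotypes and replicate 3 of the CD115- CDPs. Lyz1 and Lyz2 correlated at 0.997. Lgals3 and Fn1 correlated at 0.876 and stood near the lysozymes, and Ly86 and Mpeg1 correlated at 0.863 and were below 0 against the lysozymes. Klf4 had no correlation with another member beyond 0.169 in size.

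**Figure D5:**
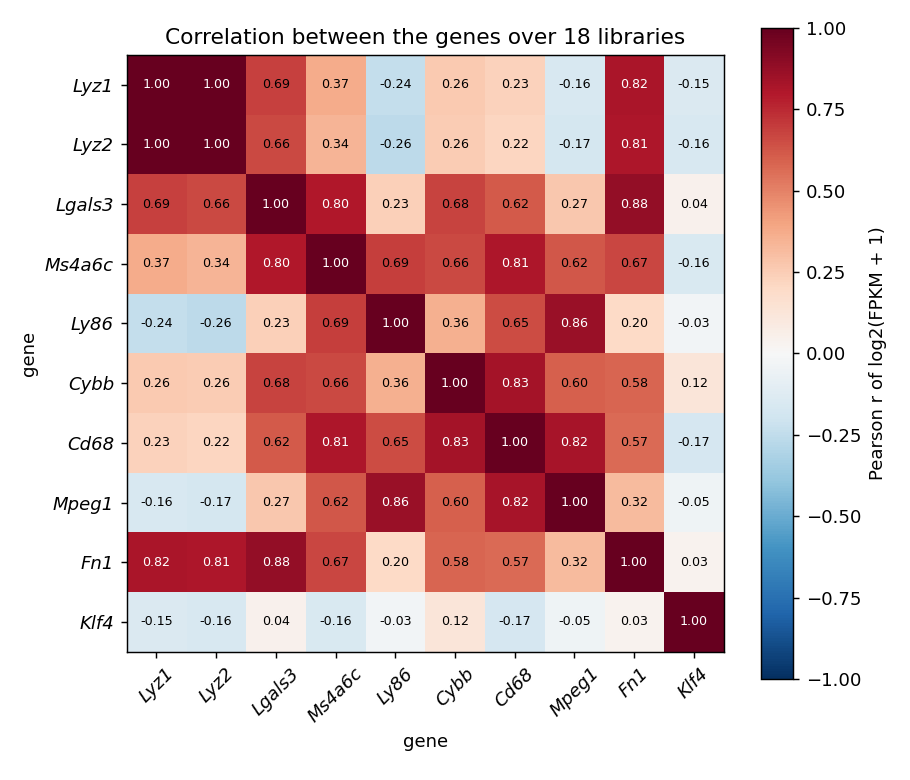
Pearson correlation of log2(FPKM + 1) for each pair of the 10 genes over 18 libraries, from blue for negative to red for positive. The lysozymes, Lgals3 and Fn1 correlate with each other, Ly86 with Mpeg1 and Ms4a6c, and Klf4 with none.

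Genes outside the 10 that were most like each member, among 8516 genes averaging 5 FPKM or more, were found by the same measure. For Lyz2 they were Mmp8, Rab32 and Plbd1 (r = 0.949, 0.939 and 0.936), the same as for Lyz1. Mmp8 is a collagenase of neutrophil granules. For Mpeg1 they were Irf8, Mapk7 and Tmem229b (0.983, 0.976 and 0.973), for Ms4a6c Csf1r, Cst3 and Tspo (0.976, 0.944 and 0.94), and for Cd68 Ncf1, Rassf4 and Cnpy3 (0.965, 0.962 and 0.96).

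For Cybb they were Pirb, Ptms and Lair1 (0.949, 0.929 and 0.912), for Lgals3 Slfn2 and S100a11 (0.942 and 0.92), and for Ly86 Lat2, Lpxn and Unc93b1 (0.919, 0.906 and 0.903). For Fn1 they were Csf2ra, Vsir and Plbd1 (0.909, 0.898 and 0.891). Klf4 was matched less closely, by Tsc22d3, Zfand2a and Ier5 (0.844, 0.793 and 0.793).

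Other monocyte and macrophage genes, from a list chosen with earlier results of these data known, had calls in the direction of the members. Of 48 listed, 38 were tested in MPPs, where 17 were called lower and none higher, against 1.32% and 0.162% of all tested genes. Their median difference was -0.91. The count called lower was 10, 9 and 8 without the WT library of replicate 1, 2 and 3, and at most 24 over the alternatives. Without the KO library of replicate 3 a gene was called higher. Apoe, F13a1 and Ccr2 had the largest differences, at -2.11, -2.10 and -1.62. In CLPs 7 of 26 tested were called lower and none higher, against 2.84% and 0.673% of all tested genes, led by Ly6c2, Ifi30 and Tyrobp at -4.45, -3.24 and -2.90. In CD115- CDPs none of 37 was called by limma, with 10 lower at an unadjusted p under 0.05. There 11 were called lower with the block and 7 without replicate 3 of both genotypes, against 1.46% and 1.29% of all tested genes. Csf1r, the receptor for the growth factor of macrophages, was called lower in MPPs and CLPs, at -1.59 and -1.65.

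The summed level of the 48 genes did not follow the counts in MPPs. It was 1615, 1581 and 1279 FPKM in WT and 2081, 2109.6 and 629 FPKM in KO MPPs, so 2 KO libraries were above all WT libraries. The most abundant gene of the list was Nr4a1, also an immediate early gene, at 875, 828 and 515 FPKM in WT and 1615, 1759.7 and 246 FPKM in KO MPPs. With Nr4a1 left out, a choice made after its values were seen, the sum was 739.9, 752 and 764 FPKM in WT and 465, 349.9 and 383 FPKM in KO MPPs. In CD115- CDPs the whole sum was 2325 to 3145 FPKM in WT and 948 to 2327 FPKM in KO libraries, which overlapped, and in CLPs 1511 to 1654 FPKM in WT and 733 to 1118 FPKM in KO libraries, which did not.

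Markers that define monocytes and macrophages ranged from near 0 to 137 FPKM. Csf1r was at 13.2 to 15.6 FPKM and Itgam at 21.2 to 23.8 FPKM in WT MPPs, and Ccr2 at 2.67 to 69.4 FPKM in WT CD115- CDPs. Adgre1, which encodes F4/80, was at 0.92 to 1.26 FPKM in WT and 0.17 to 0.33 FPKM in KO MPPs, at no more than 0.29 FPKM in CLPs, and at 0.25 to 4.55 FPKM in WT CD115- CDPs. Fcgr1 was at no more than 0.42 FPKM in MPPs and CLPs, at 0.04 to 3.48 FPKM in WT CD115- CDPs, and was listed at 0 in 1 library. Over Csf1r, Ccr2, Itgam, Adgre1, Cd14 and Fcgr1 the sum was 45.3 to 57.0 FPKM in WT and 17.98 to 31.9 FPKM in KO MPPs, with 5 of the 6 lower in all KO libraries. The sum in CLPs was 23.6 to 41.2 FPKM in WT and 10.02 to 16.8 FPKM in KO libraries, with 2 of the 6. In CD115- CDPs it was 66.5 to 250.4 FPKM in WT and 22.2 to 64.9 FPKM in KO libraries, with 1 of the 6.

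Neutrophil granule genes, which share Lyz2 as a marker with monocytes, moved with the members in MPPs. Their sum was 3806 to 3947 FPKM in WT and 1659 to 2768 FPKM in KO MPPs. There 7 of 16 were called lower, against 1.32% of all tested genes, led by Ly6g, Retnlg and Ltf at -1.70, -1.66 and -1.56. The count was 0 without the WT library of replicate 1, 2 or 3, 4 with median ratios, 3 with the filter of 5 FPKM and at most 10 over the alternatives. Their part in the lower lysozyme levels of KO MPPs was not tested. In CLPs the sum was 446 to 1112 FPKM in WT and 248 to 437 FPKM in KO libraries and none was called by limma, with 11 lower and 1 higher at an unadjusted p under 0.05 and 9 called lower with the block, or 3 and 4 without the WT library of replicate 1 and 3 and 1 without the KO library of replicate 3, while the lysozymes differed by 0.11 and 0.11. In CD115- CDPs none of the 16 was called and none had an unadjusted p under 0.05, with a median difference of 0.36, while without replicate 3 of both genotypes 3 were called higher.

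Marker sums of other cells also differed between genotypes beside the members. Of all tested genes 1.32% were called lower in MPPs and 2.84% in CLPs. The 8 red cell genes summed to 360 to 390 FPKM in WT and 32.1 to 57.8 FPKM in KO MPPs, with 7 called lower, and the 5 basophil and mast cell genes to 191 to 215 FPKM in WT and 63.0 to 102 FPKM in KO MPPs, with 4 called lower. The 5 plasmacytoid DC genes summed to 824 to 928 FPKM in WT and 113 to 123 FPKM in KO CLPs, with all 5 called lower, beside the falls of Cybb, Mpeg1, Ms4a6c, Lgals3, Cd68 and Ly86 there. The sum of 6 T and NK cell genes was higher in KO, at 30.8 to 43.2 FPKM in WT and 68.7 to 83.1 FPKM in KO CLPs and 34 to 46.6 FPKM in WT and 73.4 to 79.9 FPKM in KO CD115- CDPs. Nkg7 made up most of it and was called higher in CLPs, at 1.39, where Cd4 and Cd8a were called lower. The part of such cells in the levels of the members was not tested. Of 23 myeloid transcription factors, Egr1, Egr2 and Tfec were called lower in MPPs, at -3.02, -1.14 and -1.02, and Irf8 and Irf5 in CLPs, at -2.72 and -1.13.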

How the data were processed

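Gene expression was measured by single-end 50-base RNA-seq in 18 libraries, 3 for each genotype of 3 sorted populations. The deposited values were FPKM per gene, which the authors made with RSEM. The submitters' processing notes name Bowtie2 2.2.5, HISAT2 2.0.4, RSEM 1.2.12 and the build mm10. FPKM were deposited in a separate table for each population, so genotypes were tested within tables, and as the unit is not counts no count model was used.

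Libraries were grouped by the genotype and population in their labels. Genes averaging 0.5 FPKM or more in a population were analysed as log2(FPKM + 1) with limma 3.58.1 in R 4.3.3, with a variance trend and Benjamini-Hochberg adjustment over all tested genes, and called at an adjusted p of at most 0.05 and a log2 difference of at least 1. The effects of the populations were compared by an interaction over all 18 libraries, which sets levels across separately made tables side by side. Summaries used Python 3.11.15, pandas 2.3.3 and numpy 2.4.6. The fit without the block was tested on simulated data in which libraries varied independently. Deviations shared by libraries of the same number were not simulated. Reads per library were estimated from the steps between low FPKM values of genes with a single transcript, so depths are approximate.

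The study's labels number the replicates alike in both genotypes. Deviations of same-numbered libraries from their group means correlated at 0.437, 0.671 and 0.79 in CD115- CDPs, at 0.4, 0.329 and 0.131 in CLPs and at 0.0382, 0.482 and 0.472 in MPPs. Libraries with different numbers correlated at up to 0.663 in CD115- CDPs (WT replicate 2 with KO replicate 1), 0.234 in CLPs and 0.262 in MPPs. The numbers thus hardly told replicates 1 and 2 apart in CD115- CDPs. With a limit of 0.1 for every pair, the numbers were taken to pair libraries in CD115- CDPs and CLPs, from the data and not from a stated batch, and fits with the number as a block are given for them. Other alternatives were a pseudocount of 0.1, no filter, a filter of 5 FPKM, TPM, median ratios, quantile normalization, no variance trend, no minimum fold and leaving out each library.

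The members and gene lists were chosen with earlier results of these data known. Genes named from the lists were those called, led by the largest differences, and the genes given as partners of a member. Promoters and gene positions came from RefSeq on GRCm38.p6. Transcript sequences and lengths came from GENCODE, matched by RefSeq accession. Some genes of the lists and of the likeness ranking are not reported here.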

Additional observations from a re-analysis of the deposited data

Results flagged for a closer look

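The effect of the KO on Cybb differed between the 3 populations (limma interaction F test, adjusted p = 0.00631 over 12421 genes). It was -4.22 on the log2(FPKM + 1) scale in CLPs, -1.20 in MPPs and -1.68 in CD115- CDPs, and all 3 KO libraries were below all 3 WT libraries in each population.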

How the results depend on the processing

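The count of members called lower in MPPs, 7 as reported, ranged from 3 to 8 when single libraries were left out, being 3 without any of the WT libraries, and 7 with the replicate block. In CD115- CDPs the count of 0 was 6 with the replicate block, 4 without replicate 3 of both genotypes, an alternative chosen after the data were seen, and 0 to 0 over single libraries left out. In CLPs it was 6 to 6. Members whose KO effect differed between populations were 2 with the replicate block and 4 without the CD115- CDP WT library of replicate 3, instead of 1. The 4 include Fn1, which passed the filter through its WT libraries alone. Only genes with a small difference changed sign. Klf4 in MPPs was 0.035 with median ratios, -0.35 to 0.38 over single libraries left out and 0.29 without replicate 3. In CD115- CDPs, without replicate 3, Lyz1 was 0.58, Lyz2 0.72 and Klf4 0.24, with ranges over single libraries of -1.06 to 0.82, -1.09 to 0.99 and -0.67 to 0.30. In CLPs Lyz1 was -0.13 and Lyz2 -0.11 without replicate 3, with ranges of -0.05 to 0.37 and -0.05 to 0.38, and Klf4 ranged from -0.54 to 0.15. The causes were not tested.

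In MPPs, where the numbers did not pair the libraries by the check, 4 of 6 libraries correlated best with their own number, and the replicate block left 163 genes called lower and moved those called higher from 20 to 25. The block changed no call of a member in MPPs or CLPs, and changed calls of members only in CD115- CDPs. Median ratios and quantile normalization moved the median difference of all genes in MPPs from -0.11 to -0.0052 and -0.0063, and TPM moved it in CD115- CDPs from -0.075 to -0.19. Fn1 in CLPs passed the filter in 3 of the 6 fits without a library. Group sizes of 3, an estimated depth and FPKM rounded to 2 decimals limit the values of genes near 0.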
